A study of Mus musculus with 24 samples.

Results

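The genes described here are 10 components of the Notch pathway, namely the receptors Notch1, Notch2 and Notch3, the ligands Dll1, Dll3 and Jag1, and the transcriptional targets Hes1, Hes5, Hey1 and Heyl. They were chosen by symbol for their known place in the pathway and not by a rule on a measured value, but with earlier results of these data known. They are 10 of the 49671 genes in the deposited count table. All 10 were found and all 10 passed the filter on low counts, Dll3 and Heyl with libraries at 0 counts among them. RNA was sequenced from mouse astrocytes of different origin, asking how embryonic stem cell-derived astrocytes and cultured primary astrocytes compare with astrocytes taken straight from the brain. There were 6 groups with 4 libraries each. Neural stem cells (NSC) came from 1 embryonic stem cell line (GSC-5003, of C57Bl/6N origin), were kept with EGF and FGF at 20 ng/ml each and were used between passages 50 and 60. AGES are astrocytes derived from these NSCs by 20 ng/ml BMP4 for 3 to 5 days. Neonatal astrocytes came from C57BL/6J pups aged 4 to 8 days and adult astrocytes from C57BL/6J mice aged 100 to 140 days, with 2 mice pooled per isolation and selection on ACSA-2 with magnetic beads. They were either snap-frozen after isolation (neoAC direct, AdAC direct) or kept in culture for 7 to 10 days (neoAC CellC, AdAC CellC). A replicate was a separate isolation, or a separate culture for NSCs and AGES. Neonatal preparations used cerebral tissue without meninges, and for direct isolation of adult astrocytes the olfactory bulb and cerebellum were taken off. Neonatal and adult brains were dissociated with different kits, so age and the way of dissociation cannot be told apart.

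Notch receptors sit in the membrane and are activated by Delta and Jagged ligands on a neighbouring cell. The receptor is then cut, and its intracellular part enters the nucleus, binds the DNA-binding protein RBPJ and switches on Hes and Hey genes, which encode transcriptional repressors of the basic helix-loop-helix type. In the brain the pathway is known for keeping neural stem cells undifferentiated and for favouring astrocytes over neurons. In blood vessels Notch3 and Heyl are known as genes of mural cells, the pericytes and smooth muscle cells around the endothelium.

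Library totals lay between 27904126 and 37997368, and at these depths 3 counts, the most that a count of 0 allows, equal 0.0786 to 0.117 CPM (counts relative to a common, TMM-scaled library size). Astrocyte markers summed to 55566 to 60514 CPM in AGES, of which Gfap made up 50503 ± 1883 (SD, n = 4), to 23005 to 25531 in neoAC direct, 17965 to 18796 in AdAC direct, 7827 to 9044 in neoAC CellC and 1045 to 1586 in AdAC CellC, below the 2046 to 2581 of NSCs. RNA of other cell types moved with the groups. Oligodendrocyte markers summed to 26880 to 29753 CPM in AdAC direct and 4380 to 11194 in AdAC CellC, against at most 398 elsewhere. The summed level of 10 mural markers was 298 to 637 CPM in neoAC direct, 474 to 511 in AdAC direct, 793 to 1470 in neoAC CellC, 1789 to 2135 in AdAC CellC and at most 13.7 in NSCs and AGES. Acta2 and Tagln held most of these sums in culture (429 and 653 of a mean of 1165 CPM in neoAC CellC, 813 and 852 of 1942 in AdAC CellC), while 7 of the 10 mural markers were lower and 3 higher in neonatal culture (median log2 fold change -2.04) and 5 lower and 5 higher in adult culture (median 0.10). Endothelial markers summed to 114 to 451 CPM in neoAC direct and 84.9 to 137 in the other primary groups. At least 1 CPM was reached by 9 of the 10 mural markers in both directly isolated groups, by 7 in neoAC CellC, 8 in AdAC CellC, 1 in NSCs and 2 in AGES, and none was at 0 counts in a whole group. Of the 10 endothelial markers, 10 reached it in neoAC direct, AdAC direct and AdAC CellC, 5 in neoAC CellC, 2 in NSCs and 1 in AGES, where Cdh5 had no count. Ependymal markers moved opposite ways in culture at the 2 ages, from 163 to 245 CPM in neoAC direct to 1679.7 to 2149 in neoAC CellC (8 of 8 higher) and from 1436 to 1662 in AdAC direct to 278 to 402 in AdAC CellC (8 of 8 lower). Fibroblast markers summed to 109 to 134 CPM in AdAC direct, 1329 to 1843 in AdAC CellC, 385 to 619 in neoAC direct and 474 to 797 in neoAC CellC. Neural stem cell markers were higher in neoAC direct than in AdAC direct for 9 of 9 genes. Oligodendrocyte precursor markers summed to 1800 to 2149 CPM in NSCs, 263 to 359 in AGES and 367 to 1299 in the primary groups. Neuron markers summed to 182 to 254 CPM in AdAC CellC, 50.5 to 61.9 in AdAC direct and 14.3 to 84.8 in the other groups. Neuroblast markers summed to 409 to 465 CPM in neoAC CellC and 79.5 to 284 in the other groups, and choroid plexus markers to 584 to 1235 in neoAC direct, 449 to 1361 in neoAC CellC and at most 435 elsewhere. In every group but AGES 1 library differed more from the others than these did among themselves, by a chi-square per gene between libraries. It was 52.8 to 76.7 for NSC library 2 against the other NSC libraries and 11.1 to 28.7 among those. For neoAC direct library 4 it was 39.7 to 64.9 against 11.4 to 16.2, and for AdAC CellC library 1 it was 38.7 to 58.6 against 10.1 to 14.5. The gap was smaller for neoAC CellC library 1 (21.4 to 37.5 against 14.6 to 16.7) and AdAC direct library 4 (14.2 to 30.3 against 6.02 to 11.7). In AGES, libraries 1 and 2 differed by 12.7 and every other pair by 39.2 to 71.2. Without neoAC direct library 4, 8 of the 10 Notch genes passed the test below between neoAC CellC and neoAC direct, as with it. Without AdAC CellC library 1, 8 passed between AdAC CellC and AdAC direct, against 9 with it, and without NSC library 2, 9 passed between AGES and NSCs, against 7 with it. With all libraries, 78.0% of all genes passed between AdAC CellC and AdAC direct. It was 65.7% both between neoAC CellC and neoAC direct and between AGES and NSCs. The share of all genes without these libraries is not given here, so the counts cannot be set against it. The part of these cells in the results below was not tested. In whole-population RNA, fewer cells of a type and less RNA per cell cannot be told apart.

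**Figure D1:**
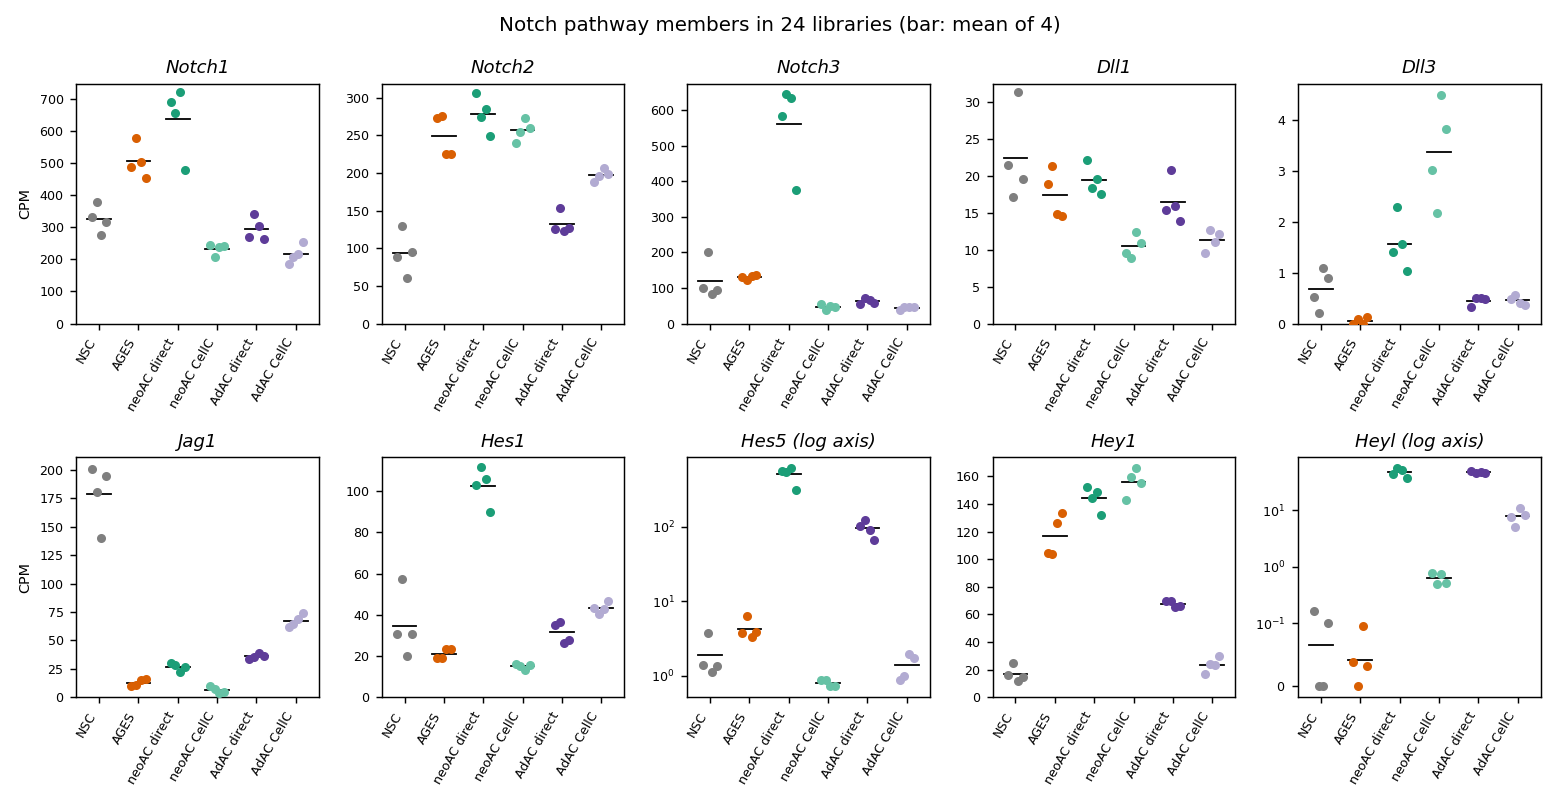
CPM of the 10 genes in each of the 24 libraries by group, 1 point per library and a line at the mean of 4; the axes of Hes5 and Heyl are logarithmic above 0.1 and linear below. Hes5 lay between 308 and 612 CPM in neoAC direct and between 0.721 and 6.41 in NSCs, AGES and the cultured primary astrocytes.

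Hes5 and Heyl showed the largest effects of culture among the 10 genes at both ages. Between neoAC CellC and neoAC direct, 8 of the 10 genes passed the test (edgeR, adjusted p under 0.05), 1 higher and 7 lower in culture, where 65.7% of all 19691 genes tested passed, 34.4% higher and 31.3% lower. Their median log2 fold change was -1.76, against 0.04 for all genes. The libraries of the compared groups did not overlap for 7 of 10 genes (58.0% of all genes), and 7 passed with an absolute log2 fold change over 1 (32.6% of all genes). Scaling by library size alone moved the split of all genes from 6766 higher and 6170 lower to 8628 and 4468.

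Between AdAC CellC and AdAC direct 9 of 10 genes passed, 3 higher and 6 lower, where 78.0% of all genes passed, 38.8% higher and 39.2% lower. Library size alone turned the order of the split of all genes, from 7644 higher and 7722 lower to 8076 and 7279. The median was -0.48 against 0.00 for all genes. There was no overlap for 9 of 10 (76.3% of all genes), and 3 passed with an absolute log2 fold change over 1 (48.7% of all genes). The effect of culture differed between the ages (interaction of culture and age, neonatal minus adult log2 effect) for 8 of 10 genes, 1 higher and 7 lower in this difference, where 68.6% of all genes passed, 33.2% higher and 35.4% lower. Over 1 in absolute size were 6 of these (45.1% of all genes). The order of the interaction split of all genes turned with DESeq2 size factors, from 6538 higher and 6964 lower to 6992 and 6409. With backgrounds this high the counts say little about these genes in particular.

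**Figure D2:**
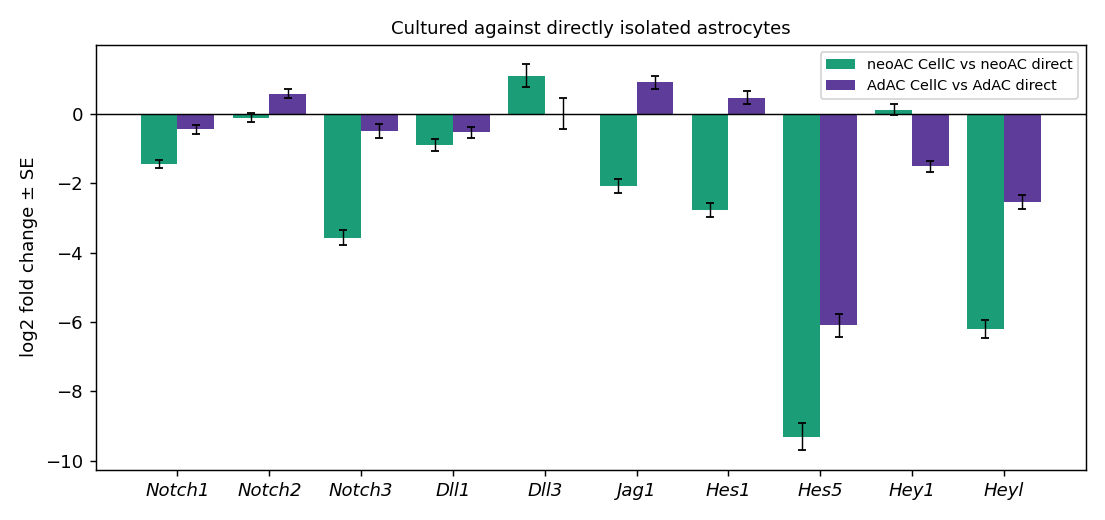
Log2 fold change of cultured against directly isolated astrocytes for each gene, neonatal in green and adult in purple, with bars of 1 standard error from the edgeR fit. Hes5 and Heyl fell at both ages, while Jag1 and Hes1 fell in neonatal and rose in adult astrocytes.

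Among Notch1, Notch2 and Notch3, Notch3 differed most between the groups. It lies at chr17:32120820-32166852 on the minus strand (GRCm38). The neoAC direct libraries held 584, 644, 635 and 377 CPM and the neoAC CellC libraries 53.6, 39.0, 48.3 and 47.6. The groups did not overlap, and library 4 of neoAC direct was the lowest of its group. The fall was -3.57 ± 0.22 (log2, SE), or 11.9-fold (adjusted p = 1.55e-12), and -3.72 without that library. AdAC direct libraries held 55.0, 71.8, 67.5 and 57.4 CPM and AdAC CellC 38.5, 45.9, 46.0 and 47.2, again without overlap. The change was -0.50 ± 0.20 (adjusted p = 0.0276). This call was lost without AdAC CellC library 1 (-0.43, adjusted p = 0.0872), AdAC direct library 2 (-0.44, adjusted p = 0.0771) or AdAC direct library 3 (-0.47, adjusted p = 0.0603). The interaction was -3.07 ± 0.29 (adjusted p = 2.51e-09), and neoAC direct exceeded AdAC direct 8.90-fold (adjusted p = 6.59e-12). Of the 10 mural markers, 1 was higher and 3 were lower in neoAC direct than in AdAC direct, with a median log2 fold change of -0.12. Rgs5, a pericyte gene, was at 170 ± 82 and 81.9 ± 5.5 CPM, Pdgfrb, which marks pericytes, at 134 ± 22 and 140 ± 15, and Vtn, also a pericyte gene, at 71.4 ± 23.3 and 144 ± 12. The part of mural RNA in Notch3 was not tested.

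Notch3 was also measured in the stem cell-derived groups. The 10 mural markers summed to 2.93 to 4.01 CPM in NSCs and 8.56 to 13.7 in AGES, with 1 and 2 of them at 1 CPM or more. The cells that held Notch3 RNA in the primary groups were not tested. NSCs held 101, 201, 84.1 and 94.4 CPM and AGES 130.03, 123, 135 and 138, while Rgs5 was at 0.160 ± 0.067 and 0.196 ± 0.112 CPM. NSC library 2 stood above the rest of its group and above every AGES library, so that the groups overlapped. The difference did not pass (log2 0.13 ± 0.20, adjusted p = 0.599). Without NSC library 2 it did (0.49, adjusted p = 0.00358), and without NSC library 3 it was 0.00 (adjusted p = 1.0). AGES exceeded both cultured groups, 2.79-fold over neoAC CellC (adjusted p = 7.48e-07) and 2.96-fold over AdAC CellC (adjusted p = 3.09e-07).

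Notch1, at chr2:26457903-26516663 on the minus strand, held 691, 655, 721 and 480 CPM in neoAC direct and 246, 207, 238 and 242 in neoAC CellC, a fall of 2.73-fold (log2 -1.45 ± 0.13, adjusted p = 2.07e-10). In adult cells it was 270, 343, 303 and 263 CPM directly and 184, 206, 218 and 254 in culture, and the groups were separate by a small margin (log2 -0.45 ± 0.12, adjusted p = 0.00187). The fall was thus larger in neonatal cells (interaction -0.998 ± 0.17, adjusted p = 1.80e-05). AGES (488, 579, 503 and 454 CPM) exceeded NSCs (331, 379, 275 and 318) by 0.63 ± 0.12 on the log2 scale (adjusted p = 6.38e-05), neoAC CellC by 1.12 ± 0.12 (adjusted p = 1.14e-08) and AdAC CellC by 1.23 ± 0.12 (adjusted p = 1.90e-09). In the order of group means, from neoAC direct through AGES, NSC, AdAC direct and neoAC CellC to AdAC CellC, NSC and AdAC direct did not pass the test against each other (adjusted p = 0.268), nor did neoAC CellC and AdAC CellC (adjusted p = 0.433).

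Notch2, at chr3:98013527-98150361 on the plus strand, followed another order. Its 4 values were 306, 274, 285 and 249 CPM in neoAC direct and 239, 255, 273 and 260 in neoAC CellC, which overlapped (log2 -0.12 ± 0.14, adjusted p = 0.471, and 0.12 with library size alone). In adult cells it rose in culture, from 126, 153, 123 and 127 CPM to 188, 195, 206 and 198 (log2 0.57 ± 0.14, adjusted p = 5.25e-04), and the interaction was -0.69 ± 0.19 (adjusted p = 0.00283). NSCs had the lowest level, 89.0, 129, 60.4 and 94.6 CPM, and AGES held 273, 276, 225 and 226, 2.68-fold more (adjusted p = 1.40e-09). AGES and neoAC CellC overlapped (log2 -0.04 ± 0.14, adjusted p = 0.799). Library size alone gave -0.34 (adjusted p = 0.0261), but it also put the median of all genes at -0.37, so this call shows no shift of Notch2 against other genes. AGES were above AdAC CellC by 0.34 ± 0.14 (adjusted p = 0.0258), a call lost without AdAC CellC library 1 (0.33, adjusted p = 0.0526), AGES library 1 (0.30, adjusted p = 0.0747) or AGES library 2 (0.29, adjusted p = 0.0792). The median of all genes in that comparison was -0.23, so the shift relative to it is wider. With library size alone Notch2 was at 0.12 (adjusted p = 0.406) and the median of all genes at -0.45. Under a minimum of 10 counts per library Notch2 was at 0.24 (adjusted p = 0.117).

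Of the ligands, Jag1 (chr2:137081456-137116644, minus strand) separated the cultures from each other. NSCs held 201, 180.2, 140.2 and 194 CPM and AGES 9.79, 10.5, 15.2 and 15.7. Every NSC library was above every AGES library, and the fall was 14.0-fold (log2 -3.81 ± 0.21, adjusted p = 7.16e-14). With it moved Mki67, a proliferation gene, at 958 ± 82 CPM in NSCs and 0.981 ± 0.268 in AGES. Mki67 was 1 of 9 neural stem cell markers, of which 3 were higher and 5 lower in AGES than in NSCs. It stood at 126 ± 28 CPM in neoAC direct and 205 ± 41 in neoAC CellC, and at 4.13 ± 0.62 in AdAC direct and 252 ± 29 in AdAC CellC. The part of proliferation in the Jag1 results was not tested. Neonatal astrocytes held 29.9, 28.7, 22.2 and 26.9 CPM directly and 10.02, 7.02, 3.74 and 4.91 in culture, 4.21-fold lower (log2 -2.08 ± 0.21, adjusted p = 5.02e-09). Adult astrocytes went the other way, from 33.5, 35.8, 38.5 and 36.1 CPM to 61.5, 64.6, 68.8 and 74.3 (log2 0.90 ± 0.19, adjusted p = 1.43e-04). The difference between the ages was -2.98 ± 0.28 (adjusted p = 1.75e-09). Cultured adult cells thereby held 10.5-fold more Jag1 than cultured neonatal cells (adjusted p = 2.09e-12) and 5.26-fold more than AGES (adjusted p = 1.25e-10). AGES exceeded neoAC CellC by 1.00 ± 0.21 on the log2 scale (adjusted p = 1.41e-04), with 1 library of neoAC CellC within the AGES range. Directly isolated cells of the 2 ages were separate but did not pass the test (log2 -0.42 ± 0.19, adjusted p = 0.0538). They did in a fit of these groups alone (-0.39, adjusted p = 0.00330), with library size alone (-0.49, adjusted p = 0.0255) and under a minimum of 10 counts per library (-0.45, adjusted p = 0.0351).

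Dll1, at chr17:15367354-15376872 on the minus strand, was low and even, between 8.83 and 31.3 CPM over the 24 libraries. It fell in culture at both ages, by 0.89 ± 0.17 on the log2 scale in neonatal (adjusted p = 5.03e-05) and by 0.54 ± 0.17 in adult astrocytes (adjusted p = 0.00551), with no overlap of libraries in either. The interaction did not pass (-0.36 ± 0.24, adjusted p = 0.188). AGES were above neoAC CellC by 0.74 ± 0.17 (adjusted p = 3.51e-04) and above AdAC CellC by 0.62 ± 0.17 (adjusted p = 0.00181). Against NSCs AGES were at -0.36 ± 0.17 (adjusted p = 0.0599), which passed without AGES library 2 (-0.47, adjusted p = 0.0214), NSC library 2 (-0.47, adjusted p = 0.0171) or NSC library 4 (-0.42, adjusted p = 0.0439), and with library size alone (-0.43, adjusted p = 0.0263). Leaving out each library in turn gave values from -0.47 to -0.15.

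Dll3 (chr7:28293553-28302238, minus strand), a ligand known to act inside the cell that makes it rather than on a neighbour, was low, at most 4.49 CPM, and near the floor of 3 counts in AGES. NSC libraries held 16, 7, 34 and 27 counts and AGES libraries 0, 3, 0 and 4. The fitted fall of -3.48 ± 0.60 (adjusted p = 1.37e-05) rests on those 7 counts in AGES, and was -4.22 without AGES library 4. In neonatal cells it rose in culture from 1.40, 2.30, 1.56 and 1.03 CPM to 3.03, 2.17, 4.49 and 3.82 (log2 1.09 ± 0.34, adjusted p = 0.00628), with 1 cultured library inside the range of the direct ones. Neuroblast markers moved with it, 6 of 7 higher and 1 lower in neonatal culture (34.4% and 31.3% of all genes). In neoAC CellC 7 of 7 were higher than in AdAC CellC (28.5% of all genes), where Dll3 was higher too. They were 3 higher and 2 lower in adult culture, and 2 and 3 in AGES against NSCs. Between neoAC direct and AdAC direct 4 were higher and 1 lower. Their sum was lower there, 124 to 146 against 158 to 215 CPM, where Dll3 was 3.47-fold higher. The part of neuroblast RNA in Dll3 was not tested. In adult cells the values were 0.319 to 0.505 CPM directly and 0.372 to 0.554 in culture (log2 0.00 ± 0.44, adjusted p = 0.996). The interaction did not pass (1.09 ± 0.55, adjusted p = 0.0829), except without neoAC direct library 2 (1.34, adjusted p = 0.0372) or in a fit of the 4 primary groups alone (1.09, adjusted p = 0.0254).

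Of the target genes, Hes5 spanned 0.721 to 612 CPM over the libraries. It lies at chr4:154960923-154962371 on the plus strand and is a classical direct target of the activated receptor. To show the motif that RBPJ is known to bind, the 250 bases before its start site are given (chr4:154960673-154960922, plus strand, RefSeq on GRCm38.p6), with matches to GTGGGAA or its reverse complement in capitals.
Hes5: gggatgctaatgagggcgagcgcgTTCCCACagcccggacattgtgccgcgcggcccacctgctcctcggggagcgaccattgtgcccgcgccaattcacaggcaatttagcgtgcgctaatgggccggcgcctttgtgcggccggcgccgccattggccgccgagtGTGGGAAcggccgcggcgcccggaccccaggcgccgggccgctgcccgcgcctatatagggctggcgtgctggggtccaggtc
The window holds 2 matches, the first on the opposite strand at -226 and the second on the strand of the gene at -83 from the start site. In windows of 300 bases, 250 before and 50 after the start site, 6.38% of 32851 RefSeq promoters held at least 1 match on either strand and 0.256% held 2 or more. RefSeq windows were found for 7 of the 10 genes, Notch1, Notch2, Notch3, Dll1, Dll3, Jag1 and Hes5, and the Hes5 window was the only 1 of their 8 with a match. No window was found for the other targets, Hes1, Hey1 and Heyl, so Hes5 could not be set against them. A second motif, CACNAG, to which Hes proteins are known to bind, was in 42.5% of promoters and in windows of Notch1 (3 matches, of which 2 overlap on opposite strands), Notch3 (2), Notch2 (1) and Dll1 (1 of its 2 windows). A match is a description of letters and not a measured binding site.

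In neoAC direct Hes5 stood at 569, 550.4, 612 and 308 CPM, and in neoAC CellC at 0.874, 0.891, 0.721 and 0.721. The groups lay far apart. Hes5 changed by -9.31 ± 0.39 on the log2 scale, a 634-fold fall (adjusted p = 3.76e-15), and by -9.49 without library 4 of neoAC direct, the low one. In AdAC direct it stood at 103, 122, 91.1 and 66.5 CPM and in AdAC CellC at 0.890, 0.991, 1.94 and 1.71, a 68.6-fold change (log2 -6.10 ± 0.34, adjusted p = 2.45e-13). The loss was deeper in neonatal cells (interaction -3.21 ± 0.51, adjusted p = 8.24e-06), which had started 5.33-fold higher (adjusted p = 2.88e-08), while the cultured groups overlapped and did not pass against each other (log2 -0.79 ± 0.44, adjusted p = 0.124), except in a fit of these groups alone (-0.69, adjusted p = 0.0424). The cultured libraries held 26 to 73 counts of Hes5 each.

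AGES held 3.71, 6.41, 3.27 and 3.82 CPM of Hes5 and NSCs 1.40, 3.70, 1.11 and 1.37. NSC library 2 overlapped AGES, and the rise was 2.26-fold (log2 1.18 ± 0.35, adjusted p = 0.00469), or 1.74 on the log2 scale without that library. AGES exceeded neoAC CellC 5.39-fold (adjusted p = 6.63e-06) and AdAC CellC 3.11-fold (adjusted p = 2.66e-04). They were below AdAC direct by 4.46 on the log2 scale (adjusted p = 5.77e-12).

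Heyl, at chr4:123233556-123249875 on the plus strand, was the only 1 of the 4 targets that did not pass between the directly isolated groups. neoAC direct held 44.5, 55.1, 51.1 and 37.2 CPM and AdAC direct 49.0, 44.8, 47.8 and 45.6 (log2 0.01 ± 0.18, adjusted p = 0.980). In culture it fell to 0.780, 0.498, 0.748 and 0.527 CPM in neonatal cells (log2 -6.20 ± 0.26, adjusted p = 3.11e-16) and to 7.49, 5.16, 11.1 and 8.22 in adult cells (log2 -2.54 ± 0.20, adjusted p = 1.63e-11). The loss was larger in neonatal cells (interaction -3.66 ± 0.32, adjusted p = 2.48e-10), so that cultured adult cells held 12.6-fold more than cultured neonatal ones (adjusted p = 7.10e-12). NSC libraries held 5, 0, 0 and 3 counts and AGES libraries 1, 0, 3 and 1, at or near the floor, so no fold is given between them. Every Heyl value of AGES against another group rests on those 5 counts.

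Mural markers did not all move as Heyl did. Heyl fell in culture at both ages, where 7 of the 10 markers were lower in neonatal and 5 in adult culture. Over the 24 libraries the gene with the profile most like that of Heyl was Rgs5 (Pearson r = 0.98 of log2 CPM, a description across libraries that share groups). Rgs5 was at 170 ± 82 CPM in neoAC direct, 1.51 ± 0.54 in neoAC CellC, 81.9 ± 5.5 in AdAC direct and 47.8 ± 17.2 in AdAC CellC. Abcc9 and Kcnj8, which encode a channel complex of pericytes, were at 24.5 ± 14.5 and 7.61 ± 4.69 CPM in neoAC direct and 21.4 ± 1.7 and 8.66 ± 0.99 in AdAC direct, and at most 0.471 CPM in any cultured library. Acta2 and Tagln, contractile genes of smooth muscle, were at 6.26 ± 1.63 and 15.4 ± 1.2 CPM in neoAC direct and 429 ± 152 and 653 ± 131 in neoAC CellC, and at 69.7 ± 9.0 and 13.7 ± 2.1 in AdAC direct and 813 ± 83 and 852 ± 78 in AdAC CellC. Des and Myh11, muscle genes of mural cells, rose in adult culture from 2.23 ± 0.14 and 10.8 ± 1.4 CPM to 20.9 ± 3.3 and 21.2 ± 2.9. The part of mural cells in the Heyl result was not tested.

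Hes1 (chr16:30064384-30067796, plus strand), the other main Hes target, fell in neonatal culture and rose in adult culture. In neonatal cells it fell from 103, 112, 106 and 89.7 CPM to 15.97, 15.4, 13.4 and 15.7, 6.78-fold (log2 -2.76 ± 0.20, adjusted p = 1.96e-11). In adult cells it held 35.0, 36.5, 26.4 and 27.95 CPM directly and 43.2, 40.7, 42.9 and 46.5 in culture, a rise of 0.46 ± 0.19 on the log2 scale (adjusted p = 0.03). This rise lost its call without AdAC CellC library 4 (0.44, adjusted p = 0.0578), AdAC direct library 3 (0.38, adjusted p = 0.0944) or AdAC direct library 4 (0.42, adjusted p = 0.0744), and with the DESeq2 size factors (0.38, adjusted p = 0.0687), the DESeq2 Wald test (0.38, adjusted p = 0.0762) or no filter (0.36, adjusted p = 0.146). The interaction was -3.22 ± 0.27 (adjusted p = 2.86e-10).

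In AGES Hes1 was at 18.9, 19.0, 23.5 and 23.2 CPM and in NSCs at 30.7, 57.4, 20.2 and 30.9. NSC library 3 lay within the range of AGES and library 2 far above it. The fall was 0.72 ± 0.19 on the log2 scale (adjusted p = 0.00208) and only 0.37 without NSC library 2 (adjusted p = 0.0191). It was not called in a fit of these groups alone (-0.62, adjusted p = 0.0654). AGES were below AdAC CellC 2.05-fold (adjusted p = 3.60e-05). They were above neoAC CellC by 0.48 ± 0.19 (adjusted p = 0.0288), a call lost without AGES library 3 (0.43, adjusted p = 0.0747), AGES library 4 (0.43, adjusted p = 0.0709) or neoAC CellC library 3 (0.42, adjusted p = 0.0806), and under 4 other settings, of which library size alone gave the lowest value (0.18, adjusted p = 0.394). The median of all genes in that comparison was -0.37 with library size alone.

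Hey1, at chr3:8663359-8667256 on the minus strand, did not pass in neonatal culture and fell in adult culture. It held 152, 144, 149 and 132 CPM in neoAC direct and 143, 160, 166 and 155 in neoAC CellC, which overlapped (log2 0.11 ± 0.15, adjusted p = 0.535). Library size alone gave 0.34 (adjusted p = 0.0413), but it also moved the median of all genes from 0.04 to 0.27. In adult cells it fell from 69.7, 69.5, 65.2 and 66.3 CPM to 17.1, 23.8, 23.7 and 29.9 (2.86-fold, adjusted p = 4.90e-09). It was therefore the only member with a positive interaction that passed (1.63 ± 0.22, adjusted p = 5.07e-07). AGES held 105, 104, 126 and 133 CPM and NSCs 16.2, 25.1, 12.1 and 14.4, a 6.90-fold rise (log2 2.79 ± 0.17, adjusted p = 1.65e-13). AGES exceeded AdAC CellC 4.96-fold (adjusted p = 2.77e-12) and were below neoAC CellC by -0.41 ± 0.15 (adjusted p = 0.0176), a call lost without AGES library 1 (-0.37, adjusted p = 0.0524) or AGES library 2 (-0.36, adjusted p = 0.0539), or with no filter (-0.37, adjusted p = 0.0564).

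**Figure D3:**
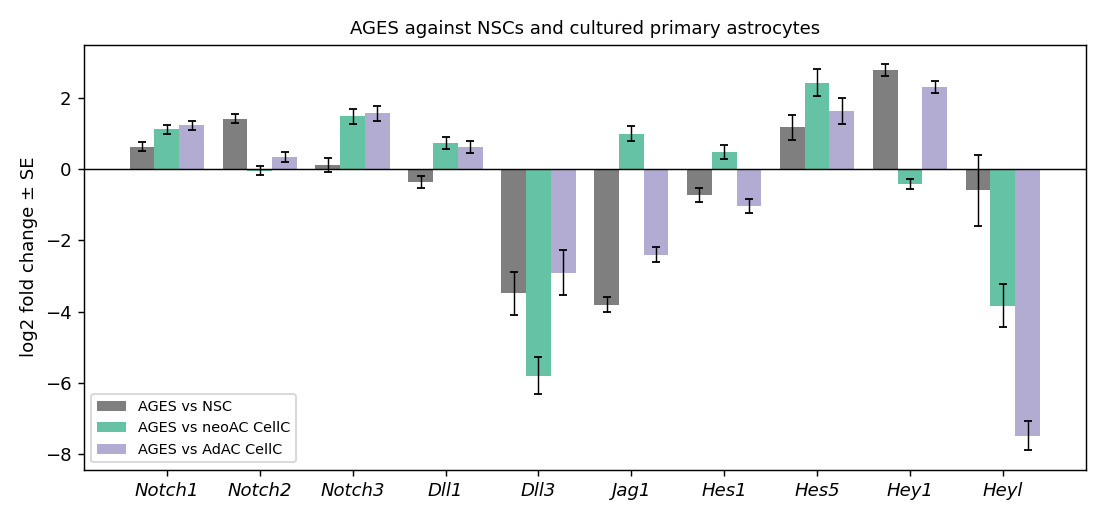
Log2 fold change of AGES against NSCs (grey), neoAC CellC (green) and AdAC CellC (purple) for each gene, with bars of 1 standard error from the edgeR fit; the 3 comparisons share the AGES libraries. Hey1 rose 2.79 over NSCs and Jag1 fell by 3.81, and Heyl and Dll3 in AGES rest on 5 and 7 counts.

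For AGES, 7 of the 10 genes passed against NSCs, 4 higher and 3 lower, where 65.7% of all genes passed, 31.7% higher and 34.0% lower. With DESeq2 size factors the order of that split turned, from 6246 higher and 6691 lower to 6695 and 6196. There was no overlap for 5 of 10 (58.3% of all genes), and 5 passed with an absolute log2 fold change over 1 (38.0%). Against AdAC CellC all 10 passed without overlap, 6 higher and 4 lower, where 76.2% of all genes passed (31.0% higher, 45.2% lower) and 73.1% did not overlap, and 8 passed over 1 (46.7%). Against neoAC CellC 9 of 10 passed, 6 higher and 3 lower, where 74.6% of all genes passed (34.1% higher, 40.5% lower). There was no overlap for 8 (69.6%), and 5 passed over 1 (43.6%). These comparisons share the AGES libraries, and library size alone moved the split of all genes in the comparison with neoAC CellC from 6710 higher and 7977 lower to 4504 and 9822.

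All 7 genes that passed between neoAC direct and AdAC direct were higher in neonatal cells, namely Notch1, Notch2, Notch3, Dll3, Hes1, Hes5 and Hey1, where 71.4% of all genes passed, 35.0% higher and 36.4% lower. All 7 were over 1 in log2 fold change (39.1% of all genes), and 8 of 10 genes did not overlap (64.9%). Between the cultured ages 6 of 10 passed without overlap, where 63.8% of all genes passed (28.5% higher, 35.2% lower in neonatal cells) and 62.2% did not overlap, and 5 were over 1 (29.8%). The order of that split turned with DESeq2 size factors, from 5620 higher and 6941 lower to 6383 and 5896. Dll3, Notch2 and Hey1 were higher in neonatal and Jag1, Hes1 and Heyl in adult cultures.

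Per exon length, the members of each family made up different shares of their family in each group. Levels between genes are compared here as CPM per kb of merged exons. Summed over 4 receptors they were 142 ± 25 in neoAC direct, 75.1 ± 4.9 in AGES and between 40.6 and 46.6 in the other groups. Notch3 made up 48.4% ± 3.0 (SD, n = 4) of the receptors in neoAC direct, and between 12.5% and 30.9% in the other groups. In the cultured primary astrocytes Notch2 led with 51.3% ± 2.8 in neoAC CellC and 45.1% ± 2.2 in AdAC CellC. With the longest transcript as length, Notch1 and Notch2 were level in neoAC CellC (44.3% and 44.2%) and Notch1 led in AdAC CellC (46.1% against 38.3%), so that the order of these genes depends on the length used. In neoAC direct that length put Notch3 at 41.7% ± 2.8 and Notch1 at 40.4% ± 1.3.

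The ligands of NSCs were Jag1 for 84.0% ± 5.9 of CPM per kb, summed over 5 ligands to 36.4 ± 3.5. In AGES the sum was 7.19 ± 0.47 and Dll1 led with 57.3% ± 9.3. AdAC CellC held mainly Jag1 (69.1% ± 1.9), and neoAC CellC was mixed, with Dll1 at 33.8% ± 3.8, Jag2 at 32.1% ± 2.6, Dll3 at 16.1% ± 4.0 and Jag1 at 15.2% ± 6.3. With the longest transcript as length, Jag2 (36.5% ± 2.9) was above Dll1 (33.3% ± 3.8) in neoAC CellC. Among Hes1, Hes5, Hey1, Hey2 and Heyl, Hes5 made up 76.4% ± 4.7 in neoAC direct and 58.5% ± 5.3 in AdAC direct. Hey1 led in neoAC CellC (83.6% ± 1.7) and AGES (72.5% ± 2.1), and Hes1 led in NSCs (71.5% ± 2.2) and AdAC CellC (65.9% ± 3.7). Their sum was 485 ± 108 CPM per kb in neoAC direct, 119 ± 19 in AdAC direct and between 23.7 and 57.2 in the other groups.

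**Figure D4:**
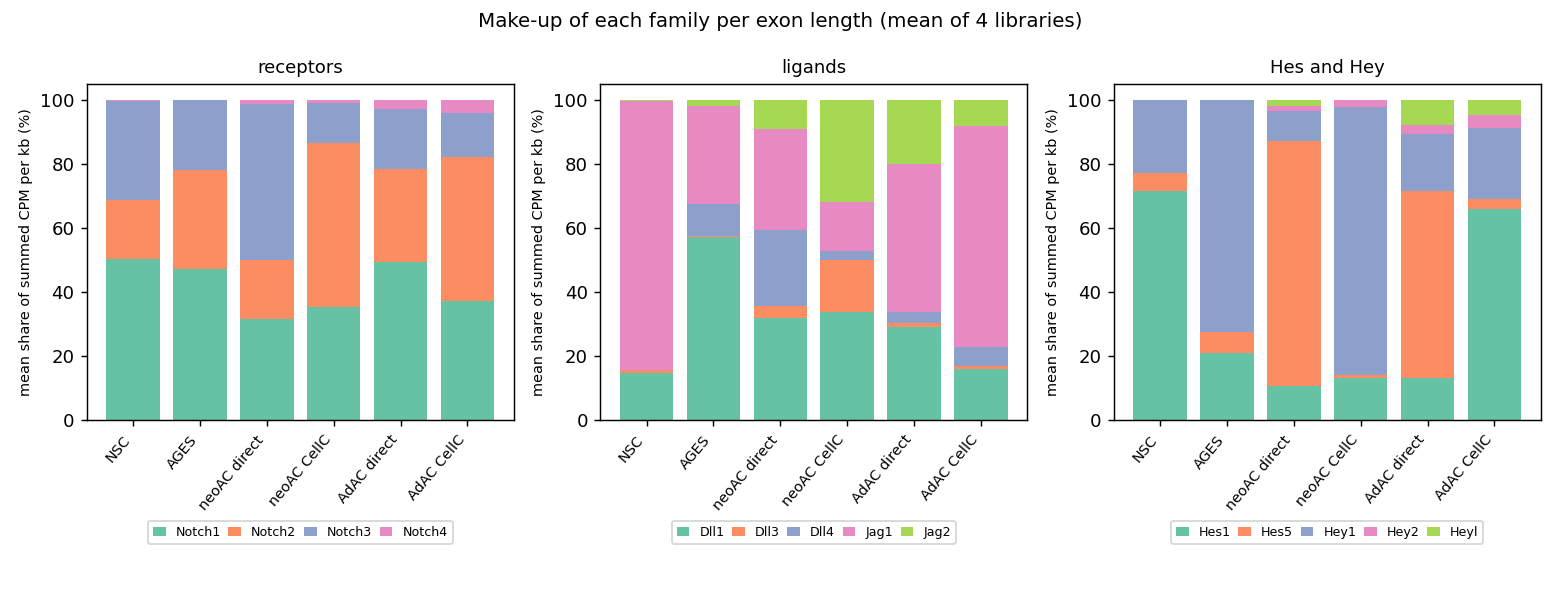
Mean share of each gene in the summed CPM per kb of merged exons of its family (in %, mean of 4 libraries), for the receptors, the ligands and the Hes and Hey genes in each group. Hes5 takes up 76.4% of the Hes and Hey genes in neoAC direct and Hey1 83.6% in neoAC CellC.

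Another 59 genes of the pathway were examined, of which 57 passed the filter. Between neoAC CellC and neoAC direct 41 of them passed the test, 15 higher and 26 lower (median log2 fold change -0.17), where 65.7% of all genes passed, and between AdAC CellC and AdAC direct 46 passed, 22 higher and 24 lower (median -0.16, with 1 gene at 0 counts in culture), where 78.0% of all genes passed. Nrarp, a feedback inhibitor induced by Notch activity, fell in culture at both ages. It held 397, 438, 469 and 332 CPM in neoAC direct and 10.8, 6.92, 8.23 and 8.59 in neoAC CellC (log2 -5.57 ± 0.23, adjusted p = 1.23e-15). In adult cells it went from 93.9, 108, 112 and 100.3 CPM to 4.45, 4.78, 6.16 and 7.54 (log2 -4.17 ± 0.22, adjusted p = 3.38e-14). Between NSCs (28.4, 47.0, 20.9 and 25.1 CPM) and AGES (2.18, 2.03, 1.31 and 1.55) Nrarp fell by 4.10 ± 0.24 on the log2 scale (adjusted p = 3.59e-13), where Hes5 and Hey1 rose and Hes1 fell. Exons of Nrarp overlap a gene on the opposite strand over 2051 of 2582 bases, a partner with a mean of at most 0.312 CPM in any group. Dll4, an endothelial ligand, fell from 14.1 ± 6.6 to 0.788 ± 0.360 CPM in neonatal culture (log2 -4.15 ± 0.38, adjusted p = 9.84e-10), where 7 of 10 endothelial markers were lower and 1 higher. In adult culture Dll4 rose from 1.84 ± 0.29 to 3.64 ± 0.53 CPM (log2 0.99 ± 0.35, adjusted p = 0.0135), where 5 endothelial markers were lower and 1 higher. The part of endothelial RNA in this was not tested.

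Dlk1, a non-canonical ligand, rose in neonatal culture from 3.18 ± 0.67 to 39.4 ± 6.3 CPM (log2 3.62 ± 0.19, adjusted p = 1.41e-14) and fell in adult culture from 4.59 ± 1.08 to 1.12 ± 0.20 (log2 -2.04 ± 0.20, adjusted p = 1.55e-09). Dlk2 rose in both, by 2.69 ± 0.35 in neonatal and 2.44 ± 0.29 in adult cells (adjusted p = 2.94e-07 and 3.71e-08). Neurl1b, a ubiquitin ligase of Notch ligands, rose in adult culture from 1.01 ± 0.32 to 14.3 ± 1.6 CPM (log2 3.80 ± 0.23, adjusted p = 1.18e-13). Neurog1, a proneural factor, was at 1.12 ± 0.38 CPM in AdAC direct and had 0 counts in all 4 libraries of AdAC CellC, which allows at most 0.0931 CPM in a library.

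By role, in neonatal culture 3 of 6 other receptors and ligands were higher and 3 lower, 4 of 5 receptor glycosylation genes were lower and none higher, and of 9 genes of receptor cleavage 2 were higher and 4 lower. Of 4 genes of ligand ubiquitination 2 were higher and 1 lower, of 8 nuclear corepressors 2 and 4, of 9 negative regulators 2 and 5, of 5 other Hes and Hey genes 1 and 1, and of 4 proneural factors tested none and 2. In adult culture the same lists gave 3 higher and 3 lower, 1 and 2, 3 and 5, 2 and 1, 3 and 3, 3 and 5, 2 and 1, and 1 and 1, in this order. Over all genes 34.4% were higher and 31.3% lower in neonatal and 38.8% and 39.2% in adult culture. Of the nuclear activation complex, 5 of 7 genes passed in neonatal culture (3 higher, 2 lower) and 7 of 7 in adult culture (4 higher, 3 lower). Its DNA-binding member Rbpj rose in adult culture (log2 1.03 ± 0.09, adjusted p = 8.46e-11) and stood at 0.02 ± 0.09 in neonatal culture (adjusted p = 0.884).

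Between AGES and NSCs, 40 of 57 other pathway genes passed, 20 higher and 20 lower, where 65.7% of all genes passed. Dner, a Notch-binding membrane protein, rose from 25.3 ± 3.9 CPM in NSCs to 248 ± 24 in AGES (log2 3.29 ± 0.13, adjusted p = 2.46e-17) and Dlk2 from 0.588 ± 0.183 to 10.8 ± 2.3 (log2 4.18 ± 0.31, adjusted p = 8.00e-12). Neurl1b fell from 37.8 ± 7.9 to 1.46 ± 0.34 CPM (log2 -4.68 ± 0.23, adjusted p = 1.52e-15), and Mfng, a glycosyltransferase of the receptors, from 2.49 ± 0.78 CPM to the floor, with 2, 1, 1 and 1 counts in AGES (adjusted p = 1.82e-11).

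Against the primary cultures, 41 of 57 other pathway genes passed for AGES over neoAC CellC (25 higher, 16 lower) and 45 over AdAC CellC (25 higher, 20 lower), where 74.6% and 76.2% of all genes passed. Hey2, a further Hes-related target, held 2, 1, 3 and 3 counts in AGES, at or under the floor, and 5.65 ± 0.57 and 5.88 ± 0.40 CPM in neoAC CellC and AdAC CellC (adjusted p = 9.99e-16 and 7.92e-16). Dlk1 held 1, 1, 1 and 0 counts in AGES. AGES held more Dner than AdAC CellC (log2 2.35 ± 0.12, adjusted p = 5.05e-15). They also held more Dlk2 and Dll4 than neoAC CellC (log2 2.43 ± 0.27 and 1.78 ± 0.39, adjusted p = 1.35e-08 and 2.07e-04).

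Between the ages, 37 of 57 passed in culture (20 higher and 17 lower in neonatal cells) and 42 after direct isolation (24 higher, 18 lower), where 63.8% and 71.4% of all genes passed. Cultured neonatal cells held more Dlk1 (log2 5.13 ± 0.21, adjusted p = 3.81e-16) and Dner (2.09 ± 0.12, adjusted p = 2.60e-13) and less Dll4 (-2.19 ± 0.38, adjusted p = 2.07e-05) and Notch4 (-1.97 ± 0.21, adjusted p = 7.39e-09), a receptor of endothelium, than cultured adult cells. Of the 10 endothelial markers, 7 were lower and 3 higher in neoAC CellC than in AdAC CellC, and their summed means were 107 and 89.9 CPM. Slco1a4 and Kdr held most of the sum in neoAC CellC, at 49.3 ± 8.5 and 47.5 ± 13.9 CPM. Pecam1 and Cdh5 were at 0.356 ± 0.085 and 2.45 ± 0.55 CPM there and at 10.9 ± 2.2 and 17.6 ± 2.8 in AdAC CellC. The part of endothelial RNA in these differences was not tested. Directly isolated neonatal cells held more Neurl1b (3.81 ± 0.23, adjusted p = 1.76e-13) and Neurog2, a proneural factor (3.00 ± 0.47, adjusted p = 3.08e-06), and less Neurog1 (-2.31 ± 0.45, adjusted p = 1.33e-04) and Kat2b, a histone acetyltransferase (-1.44 ± 0.10, adjusted p = 1.46e-12).

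**Figure D5:**
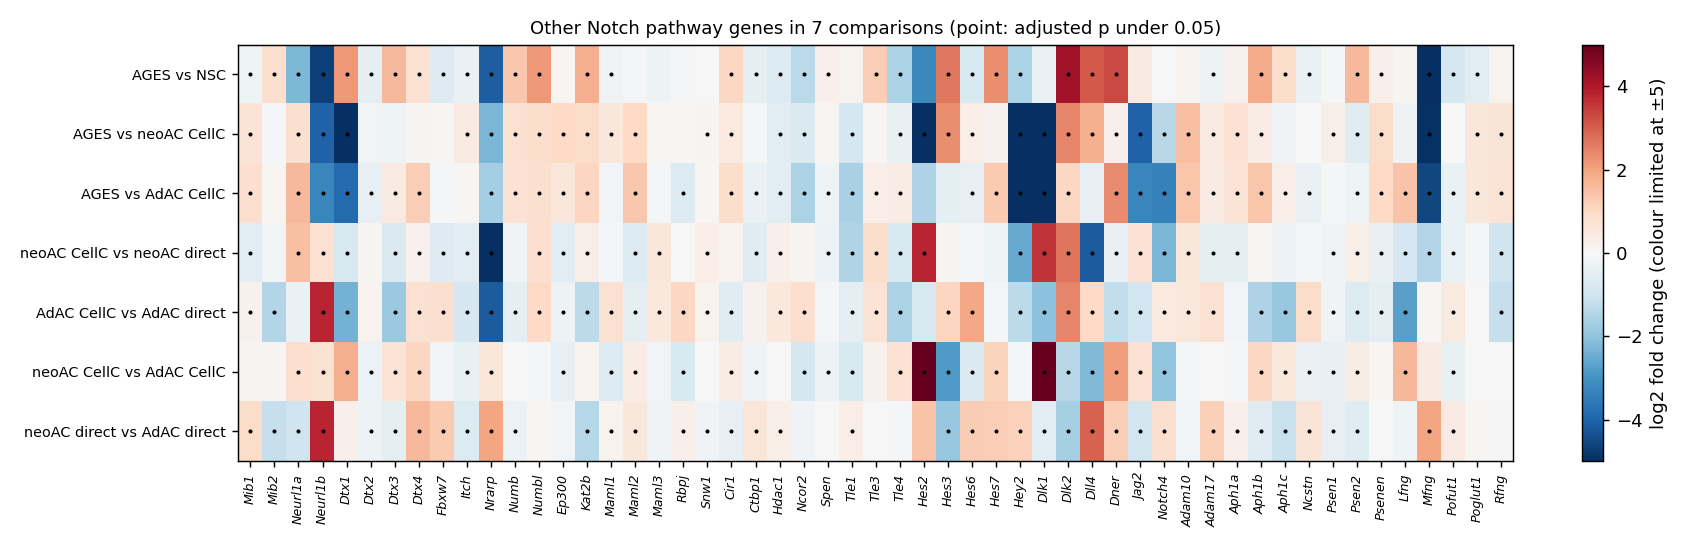
Log2 fold change of the other Notch pathway genes that were tested, proneural factors left out, sorted by role, in the 7 comparisons, red for higher in the first-named group and blue for lower, with colour limited at 5; a point marks an adjusted p under 0.05. Nrarp is blue in both culture comparisons, at -5.57 in neonatal and -4.17 in adult cells.

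Each member was also set beside all genes with a mean of at least 1 CPM over the 24 libraries by Pearson correlation of log2 CPM, as a description of libraries that share groups. Hes5 was most like Gabbr1, a subunit of the GABA-B receptor (r = 0.99), and Fjx1 (0.97). Hey1 was most like Msi1, an RNA-binding protein of neural progenitors (0.98), and Miat, a long non-coding RNA (0.97). Notch1 was most like Agrn, which encodes agrin (0.96), and Ncan, which encodes neurocan (0.95). The genes most like Notch3, Jag1, Hes1, Notch2, Dll3 and Dll1 were Ppm1b (0.95), Sema4c (0.95), Insig1 (0.94), Cpxm2 (0.96), Tpgs2 (0.92) and Pqbp1 (0.89).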

How the data were processed

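Stranded libraries of polyadenylated RNA were sequenced in paired-end mode. The authors aligned the reads with STAR 2.7.3a to GRCm38 and deposited whole-number counts per gene, made with featureCounts and Gencode vM12 and not normalized. The sources used here do not give the strand setting of the counting, nor its unit (read or pair). Exons of Notch1, Notch3, Dll1 and Hes5 overlap genes on the opposite strand (433 of 1363 bases for Hes5), partners with group means of at most 4.09 CPM. Symbols, positions and exon lengths came from Gencode vM21 on GRCm38, in which 49412 of 49671 genes (99.48%) were found.

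The counts were tested with edgeR 4.0.16 in R 4.3.3. Genes kept by filterByExpr (19691) were TMM-scaled and entered 1 robust quasi-likelihood fit of 6 groups. Tests were two-sided for 7 comparisons and for the difference of the culture effects between the ages, with Benjamini-Hochberg adjustment over all genes tested and a threshold of 0.05. A standard error was obtained as the absolute log2 fold change over the square root of F. The smallest chi-square per gene between replicates was 6.02, so no library was a duplicate. Floors of 3 counts cover counting error only. Outlying libraries were sought with Dixon's test on log2 CPM (prior count 2), and on CPM after the values were seen.

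The members, the lists of other pathway genes and the marker lists were chosen with earlier results of these data known. Named were all 10 members. Of the other pathway genes, the 2 highest and 2 lowest log2 fold changes per comparison were named among genes that passed without overlap of libraries and had a mean of 1 CPM or more in the higher group. Of the genes this rule names, 1 is not reported here. Of the 3 genes most like each member, the first or the first and second are given. Nrarp between AGES and NSCs, Rbpj, the markers set beside single results and the motif windows other than that of Hes5 were picked after values were seen. Alternatives were DESeq2 1.42.0 (its size factors, and its Wald test), library size only, no filter, a minimum of 10 counts in every library, a further limit of 1 on the absolute log2 fold change, fits restricted to the groups compared (with or without a replicate block), the longest transcript as length, and leaving out each library. On simulated data for AGES against NSCs, edgeR tested 18647 genes. It recovered 88 of 100 genes changed 2-fold and 100 of 100 changed 4-fold, with 6 false calls. DESeq2 recovered 90 and 100 with 19 false calls. The error rate in the measured AGES and NSC libraries, where 65.7% of all genes passed, was not tested.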

Additional observations from a re-analysis of the deposited data

Results flagged for a closer look

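In 4 of 60 gene and group combinations tested, 1 library stood apart from the other 3 of its group by Dixon's test on log2 CPM, which chance alone gives in about 1 of 20. Hes5 was lowest in neoAC direct library 4, at 308 CPM, and Notch2 was highest in AdAC direct library 2, at 153 CPM. Notch3 was lowest in AdAC CellC library 1, at 38.5 CPM, and Dll3 in AdAC direct library 1, at 0.319 CPM. On CPM without the log, 5 combinations passed. Hes5 in neoAC direct library 4 was then not among them, and NSC library 2 was, for Notch3 (201 CPM) and Hes5 (3.70 CPM).

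For 8 of the 10 genes the effect of culture differed between neonatal and adult astrocytes in the interaction term of edgeR. Of all genes 68.6% passed this test, and 45.1% passed with an absolute value over 1, so the count says little about these genes in particular. The neonatal minus the adult log2 effect was -3.66 for Heyl, -3.22 for Hes1, -3.21 for Hes5, -3.07 for Notch3, -2.98 for Jag1, -0.998 for Notch1, -0.69 for Notch2 and 1.63 for Hey1. For Jag1 and Hes1 the effects at the 2 ages had opposite signs and both passed. The adult rise of Hes1 lost its call when any 1 of 3 libraries was left out. That call was also lost with the DESeq2 size factors, the DESeq2 Wald test or no filter.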

How the results depend on the processing

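Of 80 results for the members, 64 passed the test, and none of these changed direction under the alternatives run. Of all 1420 alternative values of the members' results, 1344 kept their direction and side of the threshold. With the further limit of 1 on the absolute log2 fold change, 3 members passed between AdAC CellC and AdAC direct and 5 between AGES and neoAC CellC. Of the 57 other pathway genes tested, 21 passed for AdAC CellC against AdAC direct (48.7% of all genes), 13 for neoAC CellC against neoAC direct (32.6%), 22 for AGES against NSC (38.0%), 22 for AGES against AdAC CellC (46.7%), 16 for AGES against neoAC CellC (43.6%), 13 for neoAC CellC against AdAC CellC (29.8%) and 20 for neoAC direct against AdAC direct (39.1%). This limit can only lower a count. Results that had not passed changed sign as follows, and the cause was not tested. Notch2 between neoAC CellC and neoAC direct was 0.12 with library size only, where the median of all genes was 0.27, and Heyl between neoAC direct and AdAC direct -0.066. Dll3 between AdAC CellC and AdAC direct was -0.078 with DESeq2 size factors, -0.10 without filter and -0.077 in the Wald test. Without 1 library, Notch2 between AGES and neoAC CellC ranged from -0.093 to 0.0056, Notch3 between AGES and NSC from -0.0046 to 0.49, Dll3 between AdAC CellC and AdAC direct from -0.12 to 0.10, Heyl between AGES and NSC from -1.39 to 0.34 (fitted values at the floor, which measure no fold) and Heyl between neoAC direct and AdAC direct from -0.080 to 0.10. Dll3 and Heyl in NSCs and AGES, at 0 to 34 counts a library, are limited by depth.

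Same-numbered replicates did not pair (correlations of their deviations from -0.0953 to 0.106). With a replicate block 9 members passed between AdAC CellC and AdAC direct, 8 between neoAC CellC and neoAC direct, 5 between AGES and NSC (Hes1 lost its call at -0.53, adjusted p = 0.131, and Dll3 was not among the genes tested in that fit), 10 and 9 for AGES against AdAC CellC and neoAC CellC, 7 between the cultured ages, 9 between the directly isolated ages and 9 in the interaction. Over all genes, the numbers passing in these blocked fits were, in the same order, 15031 of 18106, 11770 of 17399, 11122 of 15101, 13842 of 17457, 12909 of 17353, 12304 of 17757, 13803 of 17601 and 13758 of 19036.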
